A study of Mus musculus with 4 samples.

Results

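Immunoglobulin light chain variable genes are the germline segments from which B cells build the antigen-binding part of kappa and lambda light chains. They were taken here as every row of the deposited expression table whose gene symbol starts with Igkv or Iglv, which gave 105 of 27179 genes, 102 of them kappa and 3 lambda. A further row, written in capitals as IGKV1-35, falls outside that spelling and was not counted; it stood at 2.51 and 2.18 RPKM in the Ctrl and 18.5 and 14.1 RPKM in the Gata3-KO libraries. RPKM is a read number scaled to the length of the gene and the total of the library.

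The libraries came from lymphoid tissue inducer (LTi) cells, a kind of innate lymphoid cell, sorted from the lamina propria of the small intestine of C57BL/6 mice. The sort kept cells that were CD127+ and CCR6+ and negative for lineage markers, KLRG1, NK1.1 and NKp46. Ctrl, with 2 libraries, stands for Gata3+/+ mice, and Gata3-KO, with 2 libraries, for Gata3fl/fl mice with VavCre. The Vav promoter drives Cre in blood cells in general, so floxed Gata3 can be deleted in B cells as well as in innate lymphoid cells. The labels do not say whether the Ctrl mice carry VavCre, whether replicates came from separate animals, or the age of the mice, so p-values speak only of how much these samples vary, and that variation may be technical.

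In a B cell, a single variable gene is joined to a joining gene by V(D)J recombination, and the product is spliced to a constant gene, Igkc for kappa or an Iglc gene for lambda. Kappa light chains far outnumber lambda light chains in mice, where the lambda locus holds only a few variable genes. A cell and its daughters mostly express 1 light chain, so a variable gene read at a high level in a mixed sample can come from many cells or from a few plasma cells, which make very much of it. Light chain recombination is known from the B lineage and is not a feature of LTi cells.

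The highest variable gene of each library and the near copy of 1 of them are shown first, by the last 300 bases of their germline coding sequences from GENCODE M21 (GRCm38, the same build as mm10). Iglv1 (chr16:19085017-19085460, minus strand) was the highest light chain variable gene in both Ctrl libraries, and Iglv2 (chr16:19260403-19260844, minus strand) is its near copy. Capitals mark the positions at which these lambda sequences differ, 8 in the bases shown and 11 in the whole 351.
Iglv1: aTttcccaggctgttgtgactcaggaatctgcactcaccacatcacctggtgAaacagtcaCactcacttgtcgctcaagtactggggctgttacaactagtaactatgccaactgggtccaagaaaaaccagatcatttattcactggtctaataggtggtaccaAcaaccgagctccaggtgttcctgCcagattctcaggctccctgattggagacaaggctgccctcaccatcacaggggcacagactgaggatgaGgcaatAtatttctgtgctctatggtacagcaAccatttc
Iglv2: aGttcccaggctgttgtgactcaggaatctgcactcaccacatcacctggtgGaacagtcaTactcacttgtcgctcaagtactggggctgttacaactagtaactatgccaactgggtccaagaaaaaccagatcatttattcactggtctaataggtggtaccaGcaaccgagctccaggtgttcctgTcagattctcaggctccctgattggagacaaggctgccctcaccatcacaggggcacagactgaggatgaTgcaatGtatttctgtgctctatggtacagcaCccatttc

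Igkv6-15 (chr6:70406469-70406992, minus strand) was the highest gene in Gata3-KO replicate 1 and Igkv4-57-1 (chr6:69544368-69544892, minus strand) in Gata3-KO replicate 2. Capitals mark the last cysteine codon that follows a tyrosine or phenylalanine codon and the germline bases after it, the part that enters the third complementarity-determining region. Over their coding sequences these kappa genes were 67.8% identical.
Igkv6-15: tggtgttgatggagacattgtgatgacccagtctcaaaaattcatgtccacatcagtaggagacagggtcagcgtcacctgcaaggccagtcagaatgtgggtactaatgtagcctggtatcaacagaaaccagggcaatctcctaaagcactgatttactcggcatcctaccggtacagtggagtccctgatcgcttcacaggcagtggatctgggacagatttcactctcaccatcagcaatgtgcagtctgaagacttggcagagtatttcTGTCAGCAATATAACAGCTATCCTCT
Igkv4-57-1: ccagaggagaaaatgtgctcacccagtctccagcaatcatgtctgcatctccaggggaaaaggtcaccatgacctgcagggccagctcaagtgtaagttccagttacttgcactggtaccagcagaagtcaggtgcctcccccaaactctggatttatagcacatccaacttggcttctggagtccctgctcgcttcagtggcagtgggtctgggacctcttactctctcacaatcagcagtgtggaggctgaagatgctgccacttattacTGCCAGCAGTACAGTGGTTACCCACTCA

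The ends of 6 further kappa genes, each with its last 60 coding bases and the same use of capitals, show how much the germline part of this region differs between genes that were among the 3 highest of a library or rose in limma.
Igkv5-48: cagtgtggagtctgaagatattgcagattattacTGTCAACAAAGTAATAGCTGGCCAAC
Igkv8-27: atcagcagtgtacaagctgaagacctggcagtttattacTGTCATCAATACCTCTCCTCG
Igkv17-121: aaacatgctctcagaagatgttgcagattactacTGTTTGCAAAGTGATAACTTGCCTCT
Igkv10-96: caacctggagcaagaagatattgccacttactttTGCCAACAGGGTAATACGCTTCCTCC
Igkv4-63: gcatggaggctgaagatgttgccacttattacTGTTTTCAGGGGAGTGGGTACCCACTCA
Igkv3-4: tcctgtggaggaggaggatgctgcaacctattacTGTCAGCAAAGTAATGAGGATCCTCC

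Sequence likeness limits how far reads can be told apart. Among the 101 members with a GENCODE coding sequence, the median identity to the nearest other member was 94.5%, the nearest member belonged to the same family for 91, and 48 had a neighbour at 95% or more. Iglv1 and Iglv2 were 96.9% identical, while Iglv3 was 58.2% identical to Iglv1. Igkv17-121 and Igkv17-127 were 97.5% identical, Igkv10-96 and Igkv10-94 95.4%, and Igkv6-15 and Igkv6-23 94.5%. How the authors treated reads that fit several genes is not given in the sources used here, so values within such pairs are uncertain.

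The Ctrl libraries held 14294708 and 12670034 reads and the Gata3-KO libraries 24315878 and 23973995. Gata3 stood at 84.3 and 50.7 RPKM in Ctrl and 34.5 and 23.3 RPKM in Gata3-KO libraries, which did not overlap, with a log2 difference of −1.18 ± 0.36 (SE, adjusted p = 0.0897 in limma). The LTi markers fixed for this report were read in all 4 libraries, at a summed 4144 and 2757 RPKM in Ctrl and 1288 and 1684 RPKM in Gata3-KO libraries. Of these 10 none was at 0 in any library, and Il22, an effector cytokine of LTi cells, was the 1 that fell (adjusted p = 0.0211 in limma, and 0.0406 after median-ratio scaling, which divides each library by its median ratio to the others).

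Light chain variable genes took up far more of the Gata3-KO libraries than of the Ctrl libraries. They held 0.107% and 0.198% of all reads in Ctrl replicates 1 and 2, and 1.52% and 0.737% in Gata3-KO replicates 1 and 2. Their summed level was 3055 and 5633 RPKM in Ctrl and 43414 and 21111 RPKM in Gata3-KO libraries, and the genotypes did not overlap. The means of 4344 ± 1823 and 32263 ± 15771 RPKM (SD, n = 2 per genotype) differed 7.43-fold. The lowest Gata3-KO library was 3.75 times the highest Ctrl library. With 2 libraries per genotype, an exact two-sided permutation test cannot give a p below 0.333, so sums and shares over members are given without a test.

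Markers of the cells that make light chains moved in the same libraries. All 10 B cell markers, among them Blnk, an adaptor in B cell receptor signalling, rose, against 8.35% of all 14214 tested genes called higher in limma. Their summed level was 34.4 and 64.3 RPKM in Ctrl and 398 and 527 RPKM in Gata3-KO libraries. Cr2, Pax5, Ebf1 and Fcer2a met the minimum of the low-read filter in Ctrl replicate 2 but not in Ctrl replicate 1. They were tested only because the Gata3-KO libraries met it, so their calls are a description. Of 8 plasma cell markers 4 rose, Mzb1, Derl3, Irf4 and Jchain, the joining chain of IgA and IgM polymers, and the list summed to 488 and 612 RPKM in Ctrl and 3181 and 1618 RPKM in Gata3-KO libraries. None of these 18 markers was at 0 in all libraries, and after median-ratio scaling none of them passed. The B cell sum was higher in Gata3-KO replicate 2 than in replicate 1, whereas the plasma cell sum and the light chain variable sum were both higher in replicate 1. Jchain led the plasma cell sum, at 2128 and 793 RPKM in Gata3-KO replicates 1 and 2. Sdc1 (162 and 175 RPKM) and Prdm1 (3.42 and 5.10 RPKM) were higher in replicate 2, and the other plasma cell markers in replicate 1. In bulk samples, more cells of a type and more RNA per cell cannot be told apart, and the part of B and plasma cells in the results below was not tested.

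Nearly every light chain variable gene was detected in each library. Above the value at which a gene without reads is listed (0.0001), 94 and 101 of the 105 genes were detected in the Ctrl libraries and 103 and 102 in the Gata3-KO libraries, and 92 were detected in all 4. All 3 lambda genes were detected everywhere. Igkv20-101-2 and Igkv13-71-1 had no reads in any library; a count of 0 allows up to 3 reads, which is 0.210, 0.237, 0.123 and 0.125 CPM (reads scaled to the library total) in Ctrl replicates 1 and 2 and Gata3-KO replicates 1 and 2. These floors cover counting error only. Drawn down to the 15265 light chain variable reads of Ctrl replicate 1, the expected numbers were 94.0, 98.6, 96.1 and 98.0 in the same order. At equal reads, then, the Gata3-KO libraries lay between the Ctrl libraries.

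Levels, more than detection, separated the genotypes. The median member stood at 3.07 and 5.0 RPKM in Ctrl and 36.2 and 35.9 RPKM in Gata3-KO libraries. In Ctrl replicates 1 and 2 only 21 and 34 genes reached 10 RPKM, and 9 and 15 reached 100 RPKM. In the Gata3-KO libraries 77 and 74 genes reached 10 RPKM, and 43 and 44 reached 100 RPKM. The plot of members by library shows that most Ctrl points lie low while Iglv1 stands at the top.

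**Figure D1:**
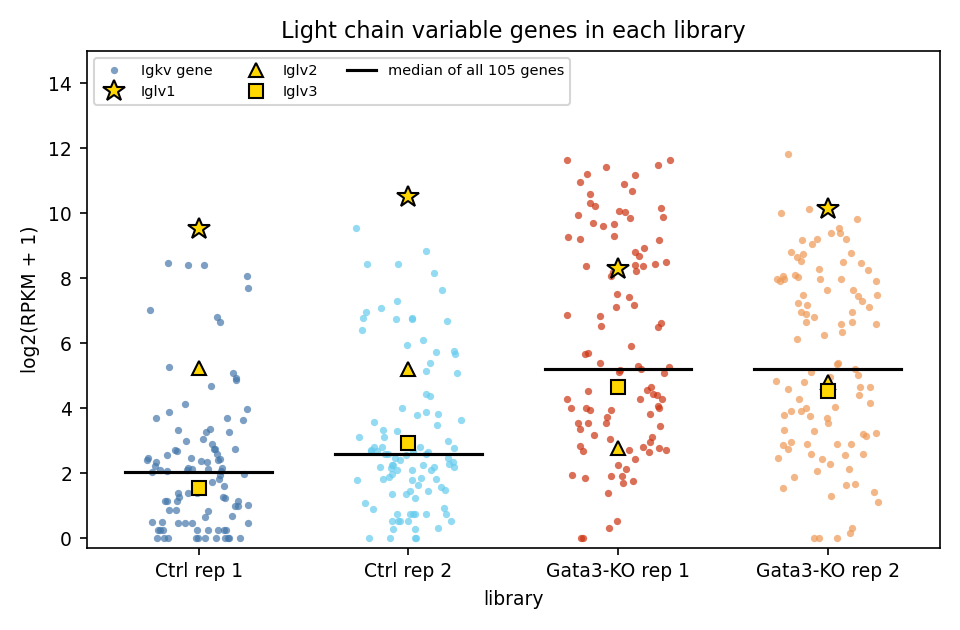
Each point is 1 light chain variable gene, by library (x axis) and log2(RPKM + 1) (y axis); points are spread sideways at random, the bar is the median of all 105 genes, and the 3 lambda genes have their own symbols. The median lies higher in both Gata3-KO libraries, while Iglv1 is the top gene of both Ctrl libraries and lies within the range of the kappa genes in the Gata3-KO libraries.

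Kappa and lambda genes did not move together. Summed over the 102 kappa genes, the level was 2281 and 4137 RPKM in Ctrl and 43074 and 19931 RPKM in Gata3-KO libraries, a 9.82-fold difference of the means (3209 ± 1313 and 31503 ± 16364 RPKM, SD, n = 2). Summed over the 3 lambda genes, it was 774 and 1496 RPKM in Ctrl and 340 and 1180 RPKM in Gata3-KO libraries, and the genotypes overlapped. Lambda genes therefore made up 25.3% and 26.6% of the light chain variable signal in Ctrl, and 0.784% and 5.59% in Gata3-KO libraries. As shares of reads, with 95% Wilson intervals, the values were 25.4% (24.8 to 26.1), 26.5% (26.0 to 27.1), 0.788% (0.760 to 0.817) and 5.63% (5.52 to 5.73). The Ctrl libraries lay close together and above both Gata3-KO libraries, which themselves differed by more than counting error.

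Constant genes gave the same split from other rows of the table. Igkc, the kappa constant gene, stood at 4619 and 9200 RPKM in Ctrl and 84604 and 36898 RPKM in Gata3-KO libraries, with a log2 difference of 3.10 ± 0.60 (SE, adjusted p = 0.0346 in limma, and 0.108 once scaled by median ratios). The lambda constant genes Iglc1, Iglc2 and Iglc3 together made up 25.3% and 26.5% of the light chain constant signal in Ctrl and 1.39% and 6.58% in Gata3-KO libraries. The kappa variable sum was 0.494, 0.450, 0.509 and 0.540 times the level of Igkc in Ctrl replicates 1 and 2 and Gata3-KO replicates 1 and 2. This ratio varied little although the sums themselves spanned an 18.9-fold range. The lambda variable sum was 0.496, 0.451, 0.285 and 0.454 times the sum of the Iglc genes, lowest in Gata3-KO replicate 1.

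**Figure D2:**
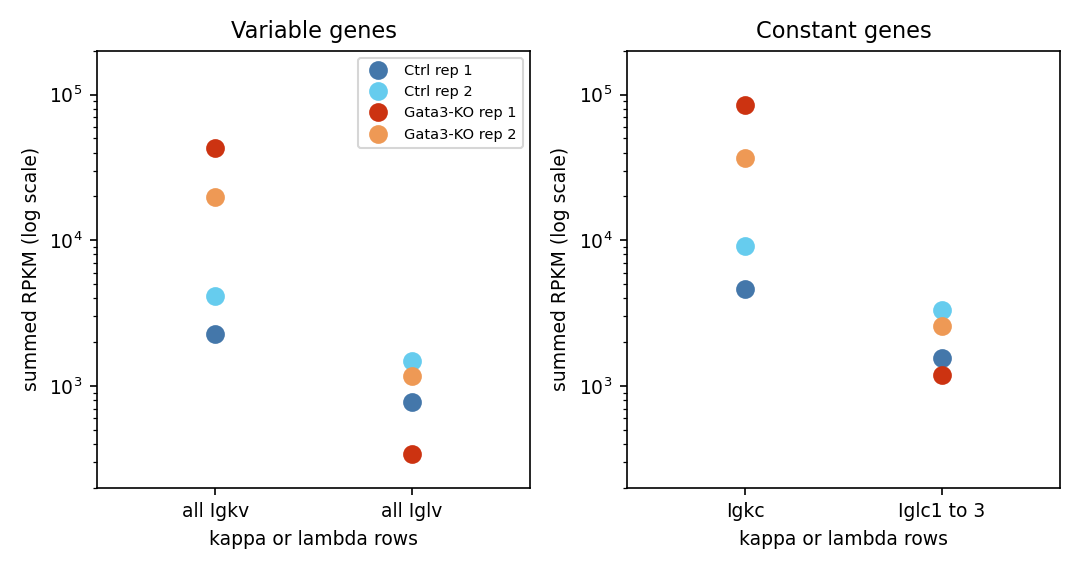
Summed RPKM (log axis) of all Igkv and all Iglv genes on the left, and of Igkc and Iglc1 to Iglc3 on the right; each point is 1 library. Both Gata3-KO libraries lie above both Ctrl libraries for kappa rows, and the genotypes overlap for lambda rows.

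Of the lambda variable genes, Iglv1 was the main gene throughout and was not higher in the Gata3-KO libraries. Iglv1 stood at 736 and 1454 RPKM in Ctrl and 311 and 1131 RPKM in Gata3-KO libraries. The genotypes overlapped, and the log2 difference of −0.80 ± 0.69 (SE) did not pass (adjusted p = 0.476 in limma). Without Gata3-KO replicate 1 it was 0.13. Iglv1 ranked 1st of 105 in both Ctrl libraries, where it took 24.1% and 25.8% of the light chain variable signal, and 34th and 2nd in Gata3-KO replicates 1 and 2.

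Iglv2 was the 1 member that lay lower in both Gata3-KO libraries than in both Ctrl libraries, against 7.58% of all tested genes. It stood at 36.3 and 35.7 RPKM in Ctrl and 5.77 and 27.1 RPKM in Gata3-KO libraries, with a log2 difference of −1.42 ± 0.67 (SE) that did not pass (adjusted p = 0.22 in limma). It made up 4.69% and 2.39% of the lambda variable signal in Ctrl and 1.70% and 2.30% in Gata3-KO libraries. The part that reads of its near copy Iglv1 have in these values was not tested.

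Iglv3 (chr16:19241208-19241679), the third lambda gene, went the other way. It stood at 1.90 and 6.63 RPKM in Ctrl (10 and 31 reads) and 23.9 and 21.8 RPKM in Gata3-KO libraries (214 and 193 reads). It rose by a log2 difference of 2.34 ± 0.49 (SE, adjusted p = 0.0401 in limma), a call that median-ratio scaling ended (adjusted p = 0.152). Iglv3 joins mainly to Iglj2 and Iglc2, and these rows rose too. Iglv2, which lies beyond Iglv3 as seen from Iglc2, was lower, and Iglc2 stood far above Iglv3 in every library. The part of each variable gene in these rows was not tested. Iglc2 stood at 37.5 and 50.5 RPKM in Ctrl and 450 and 230 RPKM in Gata3-KO libraries (log2 2.86 ± 0.39 (SE), adjusted p = 0.0192 in limma), and Iglj2 at 27.6, 43.6, 605 and 246 RPKM (adjusted p = 0.0211 in limma). Neither passed after median-ratio scaling, with an adjusted p of 0.0778 for Iglc2 and 0.078 for Iglj2 in limma.

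Iglv1 joins to Iglj1 with Iglc1 or to Iglj3 with Iglc3, and the use of these differed between the Ctrl libraries. Iglc1 stood at 721 and 3100 RPKM and Iglc3 at 803 and 166 RPKM in Ctrl replicates 1 and 2, so Iglc3 was the higher of the pair in replicate 1 and Iglc1 in replicate 2. In the Gata3-KO libraries Iglc1 was at 489 and 1997 RPKM and Iglc3 at 254 and 373 RPKM. Iglj1 (729, 3263, 358 and 2165 RPKM) and Iglj3 (781, 179, 226 and 411 RPKM) followed the constant gene that lies beside them. None of these 4 genes passed, with an adjusted p of 0.724 for Iglc1 and 0.86 for Iglc3 in limma.

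The kappa joining genes rose with the kappa variable genes. Igkj1 stood at 1808 and 1489 RPKM in Ctrl and 15168 and 9252 RPKM in Gata3-KO libraries (adjusted p = 0.0211 in limma), and Igkj2 at 1510, 3238, 30539 and 17023 RPKM (adjusted p = 0.0247 in limma). Igkj4 (75.5, 1001, 11820 and 4273 RPKM) and Igkj5 (600, 3305, 15720 and 5868 RPKM) were also higher in both Gata3-KO libraries but did not pass, with an adjusted p of 0.137 and 0.12. Igkj3, a joining gene that does not form a working light chain, was listed without reads in both Ctrl libraries and at 5.41 and 2.20 RPKM in Gata3-KO libraries. The mix differed between the Ctrl libraries, with Igkj1 at 45.3% of the summed joining gene RPKM in replicate 1 and 16.5% in replicate 2. In the Gata3-KO libraries it was 20.7% and 25.4%. Of the 14 light chain constant and joining genes listed, 12 were in the table, 11 were tested and 5 rose, against 8.35% of all tested genes, and none passed after median-ratio scaling.

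A few genes dominated the Ctrl libraries, and the Gata3-KO libraries were spread over more. Iglv1, Igkv5-48 and Igkv8-21 led in Ctrl replicate 1 with 24.1%, 11.7% and 10.99% of the light chain variable signal, and Iglv1, Igkv8-27 and Igkv6-17 in Ctrl replicate 2 with 25.8%, 13.2% and 8.12%. Igkv6-15, Igkv17-121 and Igkv12-98 led in Gata3-KO replicate 1 with 7.39%, 7.28% and 6.55%. Igkv4-57-1, Iglv1 and Igkv10-96 led in Gata3-KO replicate 2 with 17.0%, 5.36% and 5.27%. The germline sequences of the leading gene of each library are printed above.

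By the measures that follow, except the last, the Ctrl libraries were the less even. Reaching 50% of the signal took 4 genes in each Ctrl library and 9 and 10 genes in the Gata3-KO libraries, and reaching 90% took 15 and 20 genes against 30 and 37. The inverse Simpson number, the number of equally used genes that would give the same concentration, was 8.83 and 9.38 in Ctrl and 25.4 and 19.99 in Gata3-KO libraries. Over kappa genes alone it was 10.1 and 13.5 in Ctrl and 25.1 and 18.9 in Gata3-KO libraries, so the order did not rest on Iglv1. The share of the top kappa gene within kappa, by contrast, overlapped, at 15.6% and 18.0% in Ctrl and 7.45% and 18.0% in Gata3-KO libraries.

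**Figure D3:**
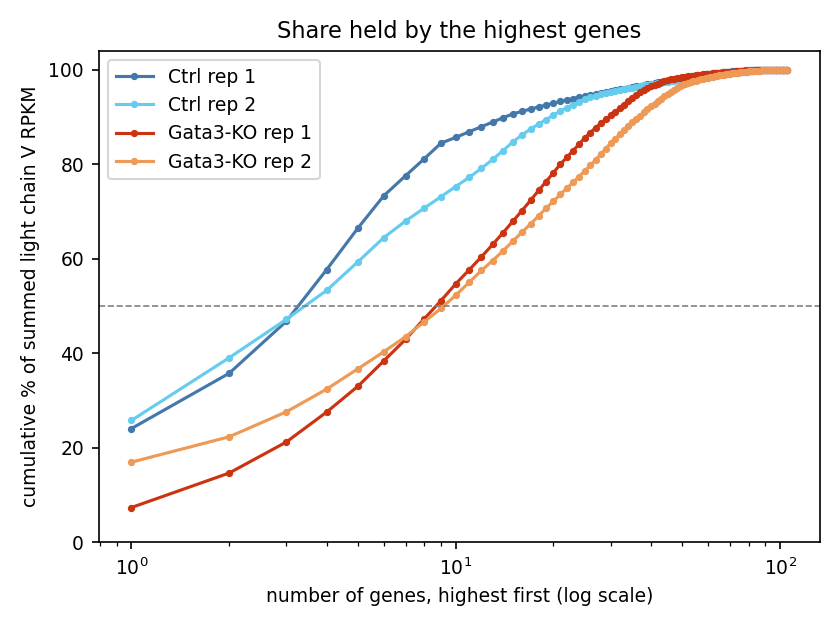
Cumulative percent of the summed light chain variable RPKM (y axis) over genes ranked from the highest down within each library (x axis, log scale); the dashed line marks 50%. Both Ctrl curves cross it at the 4th gene and the Gata3-KO curves at the 9th and 10th.

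Which kappa genes were high differed from library to library, also within a genotype. Of the 105 members, 35 differed more than 4-fold between the 2 Ctrl libraries and 52 between the 2 Gata3-KO libraries, on the RPKM + 1 scale. Over all tested genes the share was 1.6% in Ctrl and 1.72% in Gata3-KO. Igkv8-21 stood at 336 and 6.98 RPKM and Igkv8-27 at 8.94 and 746 RPKM in Ctrl replicates 1 and 2. Igkv12-98 stood at 2843 and 15.1 RPKM and Igkv4-57-1 at 90.1 and 3585 RPKM in Gata3-KO replicates 1 and 2. In each of these 4 genes a single library held most of the level seen in its genotype.

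The comparison of genotypes for such genes rests on that library. Igkv12-98, at 11.9 and 12.7 RPKM in Ctrl, had a log2 difference of 4.01 ± 3.05 (SE, adjusted p = 0.465 in limma), which was 0.28 without Gata3-KO replicate 1. Igkv4-57-1, at 24.7 and 52.3 RPKM in Ctrl, had 3.95 ± 2.21 (SE, adjusted p = 0.343 in limma), which was 1.30 without Gata3-KO replicate 2. Igkv8-27 (483 and 101 RPKM in Gata3-KO) turned from 1.36 to −1.75 without Ctrl replicate 1, and Igkv8-21 (22.6 and 8.87 RPKM in Gata3-KO) from −1.76 to 0.94. Neither Igkv8 gene passed.

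Shared use was limited in every pair of libraries. Each library's 10 highest genes shared 3 with the other library of its genotype and 2 to 5 with those of the other genotype. Only Igkv10-96 was among the 10 highest of all 4 libraries. Igkv10-96, Igkv5-48 and Igkv8-30 reached 1% of the signal in all 4 libraries, 6 genes in 3, 13 in 2 and 31 in a single library, while 52 reached it in none. The part of the composition held in common, counted as the smaller share of each gene, was 41.3% between the Ctrl libraries, 41.6% between the Gata3-KO libraries and 28.4% to 31.6% between genotypes. Over kappa genes alone, without Iglv1 and the other lambda genes, it was 22.3% between the Ctrl libraries and 42.4% between the Gata3-KO libraries. Between genotypes it then ranged from 29.2% to 32.8%, so the Ctrl pair was among the more alike with lambda genes and the least alike without them. Spearman's rho over the 105 genes was 0.54 within Ctrl, 0.53 within Gata3-KO and 0.46 to 0.67 between genotypes; the points of each pair share 2 libraries and genes of like sequence.

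**Figure D4:**
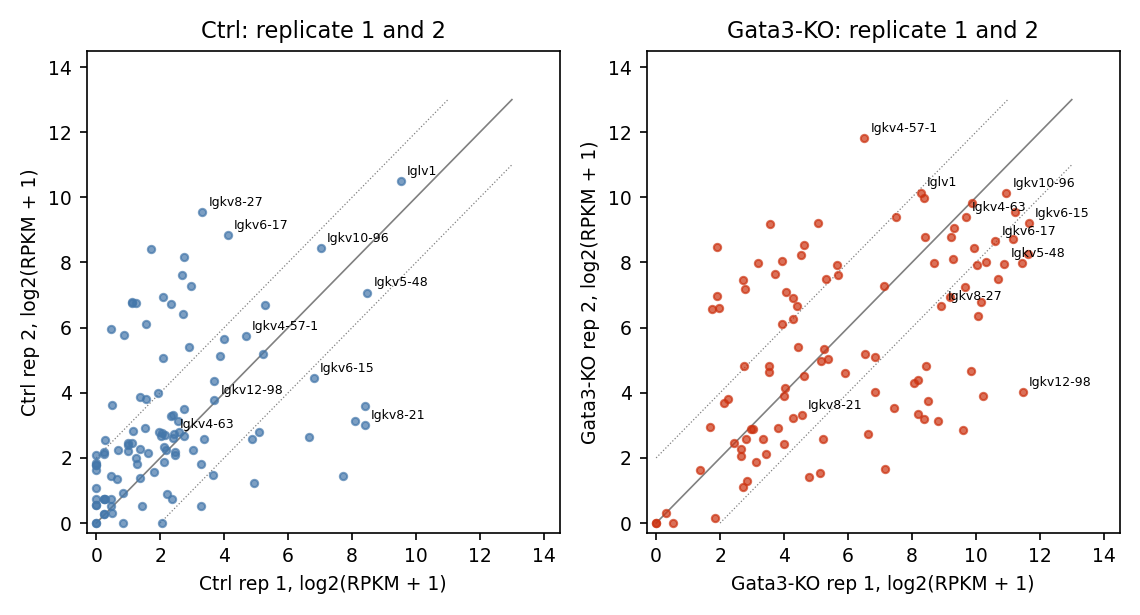
Replicate 1 (x axis) against replicate 2 (y axis) for the 105 genes, as log2(RPKM + 1), for Ctrl on the left and Gata3-KO on the right; the solid line marks equal values and the dotted lines a 4-fold difference. Igkv8-21 and Igkv8-27 in Ctrl, and Igkv12-98 and Igkv4-57-1 in Gata3-KO, lie far outside the dotted lines, while Igkv4-63 and Igkv10-96 lie within them.

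Of the 105 members 99 passed the filter on low reads and were tested, and 28 of these rose and none fell in limma, against 8.35% of all tested genes higher and 0.689% lower. At an unadjusted p under 0.05 in limma there were 44 of the 99 members, all of them higher. Over all 14214 tested genes there were 4342, in either direction. In all, 76 members lay higher in both Gata3-KO libraries than in both Ctrl libraries, against 53.9% of tested genes, and 28 overlapped or tied. The median log2 difference over all 105 members was 3.07, beside 0.43 over all tested genes. After median-ratio scaling, which brings the median tested gene to 0.05, 7 members passed and none fell, against 0.633% of tested genes higher and 0.436% lower, and 63 lay higher without overlap, against 30.1%. Leaving out any 1 library ended the member calls, in fits with only 1 library in that genotype. Members that reached the filter only through the Gata3-KO libraries had to differ, and members share reads, so these counts are a description.

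Among the members called in limma, the largest rises were in genes low in both Ctrl libraries and high in both Gata3-KO libraries. The call itself favours genes whose replicates are alike, so this pattern is a description. Igkv9-120, which was not called, had a larger ratio of means (230-fold) than Igkv4-63. It stood at 0.804 and 0.907 RPKM in Ctrl and 23.9 and 370 RPKM in Gata3-KO libraries. Igkv4-63 (chr6:69377944-69378472) stood at 4.37 and 5.61 RPKM in Ctrl, from 22 and 25 reads, and at 824 and 667 RPKM in Gata3-KO libraries. It rose by a log2 difference of 6.96 ± 0.28 (SE, adjusted p = 0.00232 in limma), and the means of 4.99 ± 0.872 and 745 ± 111 RPKM (SD, n = 2) differed 149-fold. After median-ratio scaling it rose by 6.42 (adjusted p = 0.0218 in limma). Both Gata3-KO values were alike, unlike those of Igkv12-98 and Igkv4-57-1.

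Igkv3-4 (chr6:70671789-70672377) behaved in the same way, at 7.21 and 3.74 RPKM in Ctrl and 635 and 529 RPKM in Gata3-KO libraries (log2 6.54 ± 0.34 (SE), adjusted p = 0.00305 in limma). Igkv3-1, the kappa variable gene nearest to the joining genes, stood at 4.48 and 3.30 RPKM in Ctrl and 979 and 351 RPKM in Gata3-KO libraries (log2 6.92 ± 0.50 (SE), adjusted p = 0.00693 in limma). Igkv19-93, the only gene of its family, stood at 11.9 and 19.6 RPKM in Ctrl and 2385 and 754 RPKM in Gata3-KO libraries (log2 6.36 ± 0.59 (SE), adjusted p = 0.0116 in limma). Igkv9-124 was the reverse within Gata3-KO, at 3.39 and 4.05 RPKM in Ctrl and 181 and 674 RPKM in Gata3-KO libraries (log2 6.22 ± 0.62 (SE), adjusted p = 0.0145 in limma). Igkv12-41 rose by 5.72, Igkv3-10 by 6.34 and Igkv4-57 by 6.04 log2 units in limma. Of these 8 genes, Igkv4-63, Igkv3-4, Igkv3-1, Igkv19-93, Igkv9-124 and Igkv12-41 also passed after median-ratio scaling, and Igkv3-10 and Igkv4-57 did not (adjusted p = 0.059 and 0.0675 in limma).

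Of the genes that led a Gata3-KO library, Igkv10-96 passed and Igkv6-15, Igkv17-121, Igkv12-98, Igkv4-57-1 and Iglv1 did not. Igkv6-15 stood at 110 and 20.7 RPKM in Ctrl and 3207 and 591 RPKM in Gata3-KO libraries (log2 4.81 ± 1.24 (SE), adjusted p = 0.0991 in limma). Igkv17-121 stood at 14.9 and 49.4 RPKM in Ctrl and 3162 and 308 RPKM in Gata3-KO libraries (log2 5.13 ± 1.46 (SE), adjusted p = 0.129 in limma). Both lay higher in both Gata3-KO libraries. Igkv10-96 rose, from 129 and 347 RPKM in Ctrl to 1973 and 1112 RPKM in Gata3-KO libraries (log2 2.80 ± 0.55 (SE), adjusted p = 0.0365 in limma), and did not pass after median-ratio scaling (adjusted p = 0.13).

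None of the genes that led a Ctrl library passed. Igkv5-48 stood at 357 and 134 RPKM in Ctrl and 1899 and 248 RPKM in Gata3-KO libraries, which overlapped (log2 1.65 ± 1.16 (SE), adjusted p = 0.404 in limma). Igkv6-17 stood at 16.3 and 457 RPKM in Ctrl and 1553 and 401 RPKM in Gata3-KO libraries, which overlapped too (log2 3.15 ± 2.10 (SE), adjusted p = 0.41 in limma). The tested members with the smallest differences were Igkv4-62, Igkv6-29 and Igkv7-33, with log2 differences of 0.13, 0.24 and 0.35, which turned to −0.39, −0.20 and −0.018 after median-ratio scaling. Igkv4-62 stood at 1.19 and 109 RPKM in Ctrl and 15.2 and 16.7 RPKM in Gata3-KO libraries, so its log2 values differed little on average although the Ctrl libraries lay far apart, and its mean RPKM was lower in Gata3-KO (15.9 against 54.97 in Ctrl).

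By family, the kappa genes fall into 20 groups of related sequence, and the shares of these groups moved between libraries as single genes did. Igkv4, with 28 genes the family with most members, held 14.9% and 10.1% of the light chain variable signal in Ctrl and 10.6% and 30.0% in Gata3-KO libraries. Igkv4-57-1 alone made up 56.6% of the family in Gata3-KO replicate 2, and Igkv4-58 made up 73.4% of it in Ctrl replicate 1. Igkv6, with 9 genes, held 9.30% and 9.84% in Ctrl and 20.7% and 9.65% in Gata3-KO libraries. Igkv12 held 10.8%, 6.66%, 11.7% and 10.8%, each time with another leading gene, Igkv12-44, Igkv12-89, Igkv12-98 and Igkv12-46.

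Several families lay on different sides of the genotypes. Igkv8, with 11 genes, held 19.7% and 15.9% in Ctrl and 8.42% and 2.93% in Gata3-KO libraries, without overlap. Different genes led the family in Ctrl, Igkv8-21 with 55.8% of it in replicate 1 and Igkv8-27 with 83.1% in replicate 2. Igkv8-30 led it in Gata3-KO replicates 1 and 2, with 75.6% and 40.9%. Igkv3 held 0.746% and 1.68% in Ctrl and 7.13% and 9.97% in Gata3-KO libraries, and Igkv19 0.389% and 0.347% against 5.49% and 3.57%. In level rather than share, Igkv8 stood at 602 and 898 RPKM in Ctrl and 3657 and 618 RPKM in Gata3-KO libraries, which overlapped. Igkv3 stood at 22.8 and 94.5 RPKM in Ctrl and 3093 and 2105 RPKM in Gata3-KO libraries. In limma 4 of its 9 genes rose, against 8.35% of all tested genes. Igkv6 had the same count, 4 of 9, and Igkv12 had 3 of 6. Igkv5 held 11.9% and 3.21% in Ctrl and 8.12% and 1.77% in Gata3-KO libraries, higher in replicate 1 of each genotype. These shares were not tested.

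**Figure D5:**
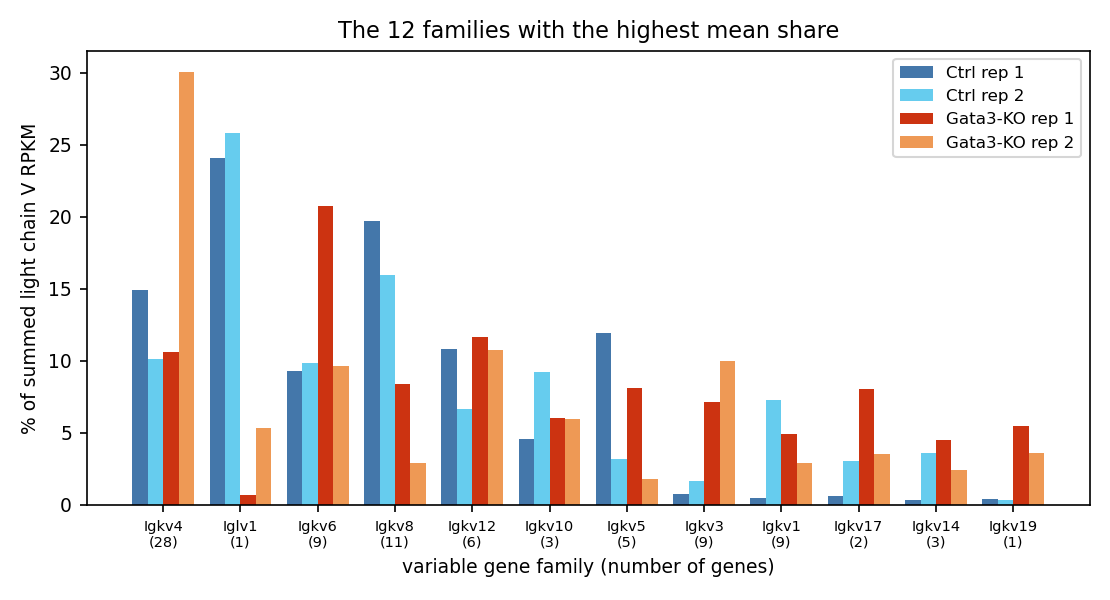
Percent of the summed light chain variable RPKM (y axis) held by each of the 12 families with the highest mean share (x axis, with the number of genes in brackets); each bar is 1 library. Iglv1 and Igkv8 are higher in both Ctrl libraries, Igkv3 and Igkv19 in both Gata3-KO libraries, and Igkv4 stands out in Gata3-KO replicate 2.

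Position in the kappa locus, on chromosome 6, was read from RefSeq (GRCm38.p6). The 102 kappa genes start between 19.0 and 3167 kb from Igkj1. The 51 genes nearer to Igkj1 held 87.0% and 51.4% of the kappa variable signal in Ctrl and 52.4% and 59.1% in Gata3-KO libraries. Kappa variable genes lie on either strand, and recombination deletes the DNA between genes that lie on the strand of the joining genes and inverts it otherwise. The 63 genes on the opposite strand held 94.6% and 63.6% in Ctrl and 63.4% and 68.7% in Gata3-KO libraries. In both measures Ctrl replicate 1 stood apart and the other 3 libraries lay close together. The 3 genes annotated as pseudogenes in either annotation, Igkv4-60, Igkv4-73 and Igkv13-71-1, held 0.00857%, 0.131%, 0.0601% and 0.0556% of the kappa signal.

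Of the genes that act before or around light chain recombination, some were near the limit of detection and others were read at a few RPKM or more, such as Xrcc6, a DNA end-binding repair protein, at 9.24 and 7.17 RPKM in Ctrl and 13.7 and 23.6 RPKM in Gata3-KO libraries. Rag1, which cuts the DNA at recombination signals, was at 0 in both Ctrl libraries and at 0.037 and 0.344 RPKM in Gata3-KO libraries, and Rag2 at 0 in Ctrl and at 0.0121 and 0.307 RPKM. Of 12 recombination genes 10 were tested and 1 rose, a share near the 8.35% of all tested genes called higher. It was Dntt, the enzyme that adds bases at the joints, which went from 0 and 0.0741 to 3.11 and 1.61 RPKM (adjusted p = 0.0356 in limma). With 0 and 2 reads in Ctrl and 161 and 82 in Gata3-KO, Dntt reached the filter only through the Gata3-KO libraries. It therefore had to differ, and its call is a description. The surrogate light chain stands in for the light chain in precursor B cells, and 4 genes were listed with it. Vpreb1 was at 0 in Ctrl and at 1.07 and 1.74 RPKM in Gata3-KO libraries. Igll1 was at 9.25 RPKM in Gata3-KO replicate 2 and below 0.1 elsewhere. Vpreb3, related to Vpreb1 by name and the 1 tested, rose from 3.60 and 7.47 to 28.8 and 68.4 RPKM (adjusted p = 0.0309 in limma). None of these passed after median-ratio scaling.

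Factors that act on light chain promoters and enhancers rose in part. Of 14 listed, 7 rose in limma, Pou2af1, Pou2f2, Spib, Spi1, Irf4, Ebf1 and Pax5, and none fell, against 8.35% of all tested genes higher and 0.689% lower. Pou2af1, the co-activator that binds with octamer factors, stood at 1.69 and 5.08 RPKM in Ctrl and 54.0 and 37.5 RPKM in Gata3-KO libraries, and none of the 7 passed after median-ratio scaling. Ebf1, Pax5 and Irf4 are also in the B or plasma cell lists. Ebf1 and Pax5 were tested only because the Gata3-KO libraries met the low-read filter, so their calls are a description. Among heavy chain constant genes, Ighm, the chain of IgM, rose from 17.2 and 39.6 to 1062 and 638 RPKM (adjusted p = 0.0107 in limma and 0.0476 after median-ratio scaling). Igha, the chain of IgA, stood at 3053 and 8578 RPKM in Ctrl and 56209 and 20135 RPKM in Gata3-KO libraries, without overlap, and did not pass (adjusted p = 0.0655 in limma). Of 8 heavy chain constant genes 7 were tested, and Ighm and Ighd rose, against 8.35% of all tested genes.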

How the data were processed

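Sorted cells gave total RNA, from which Smart-seq2 libraries were prepared, per the labels' protocols; the method reads whole transcripts and has no molecular identifiers. Subread, featureCounts and mm10 are named in the submitters' processing notes, but their versions, their settings and the rule for multi-mapping reads were not given in the sources used here. Values the authors deposited equal log2(RPKM + 1) plus 0.0001, as found from the numbers, with no scaling between libraries beyond their totals.

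Whole reads were recovered, since a gene's values are whole multiples of 1 read's worth (tolerance 0.001 reads). They made up 98.9%, 99.1%, 98.7% and 98.6% of the totals of Ctrl replicates 1 and 2 and Gata3-KO replicates 1 and 2. For 4 members whose read numbers left the length open, it was multiplied to match the GENCODE coding length; 94 members' lengths lay within 4 bases of it. Reads served for depth, intervals, the filter and scaling, and intervals cover counting error only.

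Counts had been considered for the test, and the table holds none, so limma 3.58.1 (R 4.3.3; trend, robust, two-sided, Benjamini-Hochberg over all 14214 tested genes, threshold 0.05) was run on log2(RPKM + 1), pseudocount 1, which understates changes of low genes. Tested genes had 0.5226 CPM in 2 libraries and 15 reads in total. The fit and the read recovery were tested on simulated data. Alternatives were median-ratio scaling, no filter, a pseudocount of 0.1, limma-voom, a replicate block and leaving out each library. Named genes were all lambda genes, the 3 highest of each library, the 8 largest called rises, the 3 smallest differences and fixed gene lists; others were named after their values were seen. Members and lists were chosen with earlier results of these data known. Symbols and coordinates came from RefSeq GRCm38.p6, in which all 105 members were found. Promoter sequences of the members were not used here. Tables and plots were made in Python 3.11.15 (scipy 1.17.1, numpy 2.4.6, matplotlib 3.10.9, pandas 2.3.3).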

Additional observations from a re-analysis of the deposited data

How the results depend on the processing

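The count of 28 light chain variable genes called in limma became 7 with median-ratio scaling, 5 with limma-voom and 0 without a filter. Without a filter, 47 of 103 members had an unadjusted p under 0.05 in limma, against 4336 of all 19047 genes. Over all genes 1285 calls became 152, 270, 0 and, with a pseudocount of 0.1, 855. Of the 23 named genes 10 became 6, 4 and 0, where most of the 10 had been named because they were called. Leaving out 1 library ended the calls in all 3 counts, in fits with only 1 library in that genotype. The cause was not tested. The replicate block, on numbers that nothing ties to shared animals or days (correlation of same-numbered deviations −0.02 over all tested genes), gave 32 members, 10 named genes and 1080 genes.

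All 10 named genes that passed kept their direction under every alternative run. Most of them had been named because they were called with the largest rises. Their selection favoured this outcome, so it is a description and not a test. Among them, Igkv10-96 and Iglv3 were named for other reasons. Of the named genes that did not pass, with median-ratio scaling Igkv4-62 turned to −0.39, Igkv6-29 to −0.20 and Igkv7-33 to −0.018. Without 1 library in turn, the lowest and highest values were −2.70 and 2.95 for Igkv4-62, −1.61 and 2.09 for Igkv6-29, −0.46 and 1.15 for Igkv7-33, −4.46 and 0.94 for Igkv8-21, −1.75 and 4.48 for Igkv8-27 and −1.73 and 0.13 for Iglv1.

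The mean number of genes detected, 97.5 in Ctrl and 102.5 in Gata3-KO, was 86.5 and 101 with at least 3 reads, 79 and 100.5 with at least 1 RPKM, 97.0 and 102 at the depth of the shallowest library, and 96.3 and 97.1 at an equal number of light chain variable reads, the last chosen after seeing the data. Without 1 library it ranged from 94 to 101 and from 102 to 103. Lambda shares ranged from 25.3% to 26.6% in Ctrl and 0.784% to 5.59% in Gata3-KO, and the top gene's share from 24.1% to 25.8% and 7.39% to 17.0%. Depth limits genes of under 3 reads, most of them in Ctrl replicate 1.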
